A study of Rattus norvegicus with 24 samples.

Results

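The endoplasmic reticulum chaperone genes described here are Hspa5, Hsp90b1, Hyou1, Calr, Dnajb9, Sdf2l1, Pdia4 and Herpud1, together with the transcription factor genes Atf6 and Xbp1. These 10 genes were taken by symbol from a table of 17420 rat genes, and all 10 were found once. They were measured by RNA sequencing of the dissected hippocampus and neocortex of 24 fetal Sprague-Dawley rats on embryonic day 18. The pups fell into 4 groups of 6, each with 3 pups from each of 2 litters, named after the treatment of the dam. MAM dams received the DNA-methylating agent methylazoxymethanol acetate (22 mg/kg) and Poly I:C dams received polyinosine:cytosine (7.5 mg/kg), a synthetic double-stranded RNA that mimics a viral infection. Both were injected on gestational day 17, 18 hours before collection, as was the saline of the control dams. Low Protein dams ate a diet with 6.1% protein from gestational day 11, and the control diet held 20.3% protein. The diet of the MAM and Poly I:C dams, and whether Low Protein dams were injected, is not given in the sources used here. The dam was the treated unit, so pups of 1 litter are not independent, and litter values are given where the 2 litters of a group did not overlap.

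The endoplasmic reticulum is the compartment in which secreted and membrane proteins fold. When unfolded proteins build up there, sensors in its membrane start the unfolded protein response. The sensor ATF6 is cut and its free part enters the nucleus, while the sensor IRE1 splices the mRNA of XBP1 into a form that encodes an active factor, and both factors raise the transcription of chaperones, of their helpers and of genes for the removal of misfolded proteins. The chaperones are also made without stress, in proportion to the load of secreted and membrane proteins, which is high in growing neurons.

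Levels are given as the deposited normalized value, called TPM by the authors. Multiplied by the genomic span of a gene with introns included, many low values lay near whole multiples of a step. The values are therefore read here as levels per base of genomic span, and division by the length of the mRNA was not tried. The total reads of a pup, estimated from steps in the low values, lay between 24.9 and 64.8 M reads (M, megareads). The group medians were 30.8 M for Poly I:C, 34.0 M for saline, 42.4 M for MAM and 44.3 M for Low Protein. Markers of the labelled tissue were detected in every pup for the 5 of 6 names that could be matched, among them Neurod6 and Tbr1. Their summed level ran from 113 to 226 in saline, 158 to 240.3 in Low Protein, 181 to 219 in MAM and 178 to 252 in Poly I:C. In these bulk samples fewer cells of a type and less RNA per cell cannot be told apart.

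Per base of genomic span, Calr had the highest mean over the 24 pups (67.9), followed by Hspa5 (40.2), Hsp90b1 (14.9), Xbp1 (12.3) and Hyou1 (8.23). Lower levels per span were found for Sdf2l1 (3.09), Pdia4 (3.05), Herpud1 (2.19) and Dnajb9 (2.03). The ranges over the pups overlapped for neighbours in this order, namely Calr with Hspa5, Hsp90b1 with Xbp1, and Sdf2l1, Pdia4, Herpud1 and Dnajb9 in turn. Atf6 was the lowest at 0.0981, and its span of 179648 bases is the longest of the 10 genes, against 2243 bases for Sdf2l1. Tests were run on the 5086 genes whose mean was above 1 in every group. Of the 10 genes 9 met this limit and Atf6 did not, so its values come from a fit of the 12654 genes above the offset in every pup. The estimated reads behind a value ran from 194 for Sdf2l1 to 26877 for Calr, so Sdf2l1 carried the largest counting error.

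The binding sequences through which ATF6 and XBP1 are known to act were looked for in the RefSeq promoters of these genes (assembly GRCr8, 250 bases before to 50 after the start). The endoplasmic reticulum stress element (ERSE) was searched as CCAAT and CCACG with 9 bases of any kind between them, the second form (ERSE-II) as ATTGG and CCACG with 1 base between, and the core of the unfolded protein response element as TGACGTGG, each on both strands. Of the 9 genes with a listed promoter, 6 held at least 1 of these. The letters searched were already known from genes of this response, so this count is a description and not a test. Over all 33469 promoters the ERSE was found in 0.0657%, the ERSE-II in 0.0508%, the core in 0.595% and any of them in 0.708%. The ERSE and ERSE-II matches are printed because 4 of the 5 genes that passed the adjusted test below hold them. Pdia4 passed that test without a match, and Xbp1 and Herpud1 hold a match and did not pass it. A link between the matches and the levels was not tested. They are given on the strand of the gene with the matched letters in capitals and flanking bases in lower case. Capitals that begin with CGTGG are matches on the opposite strand.
Hspa5, chr3:38452953-38453011, plus strand: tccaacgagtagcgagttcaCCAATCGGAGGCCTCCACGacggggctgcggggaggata
Hsp90b1, chr7:23012431-23012489, minus strand: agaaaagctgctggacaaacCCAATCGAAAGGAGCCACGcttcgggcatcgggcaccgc
Hsp90b1, chr7:23012327-23012385, minus strand: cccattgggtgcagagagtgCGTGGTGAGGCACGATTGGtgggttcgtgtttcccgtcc
Calr, chr19:40213117-40213173, plus strand: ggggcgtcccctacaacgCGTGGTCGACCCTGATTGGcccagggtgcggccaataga
Xbp1, chr14:84604538-84604596, plus strand: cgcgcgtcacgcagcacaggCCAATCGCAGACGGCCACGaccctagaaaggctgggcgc
Hyou1, chr8:53602674-53602724, plus strand: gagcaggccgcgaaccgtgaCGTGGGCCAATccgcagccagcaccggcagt
Hyou1, chr8:53602774-53602824, plus strand: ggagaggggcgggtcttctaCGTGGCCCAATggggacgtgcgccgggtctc
Herpud1, chr19:10614801-10614851, minus strand: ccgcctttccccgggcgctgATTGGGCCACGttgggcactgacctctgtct

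Hspa5, Hsp90b1, Calr and Xbp1 held the ERSE, Hsp90b1 2 times, and Hyou1 and Herpud1 held the ERSE-II, Hyou1 2 times in the first of its 2 listed promoters. The first Hyou1 match overlaps a match of the TGACGTGG core. The ERSE of Hspa5 lies from 43 to 25 bases before the start and that of Xbp1 from 65 to 47, while that of Calr lies farther away, from 232 to 214 bases before. The letters searched were not in the windows of Dnajb9, Sdf2l1 and Pdia4, which says nothing about the factors. A match is a string of letters and not a measured binding site.

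The clearest difference lay between the MAM and the Poly I:C pups. This comparison also had the most genes of the whole table at an unadjusted limma p under 0.05 (23.1% of all genes). In MAM, Hspa5, Hsp90b1, Hyou1, Pdia4 and Calr were at 0.711 to 0.862 times their Poly I:C level and passed the adjusted test (3.46% of all genes). No gene passed it with litter means or without MAM litter 2. All 10 genes had a lower mean log2 value in MAM, where 37.8% of all genes had a higher one. The saline mean lay between those of MAM and Poly I:C for 9 of the 10 genes. Against saline, 6 genes were higher in Poly I:C (4.25% of all genes) and 2 were lower in MAM (8.18% of all genes) at an unadjusted p under 0.05, and none passed the adjusted test. In Low Protein against saline no gene of the 10 passed either threshold. The plot of values by pup shows all 10 genes in each group and litter.

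**Figure D1:**
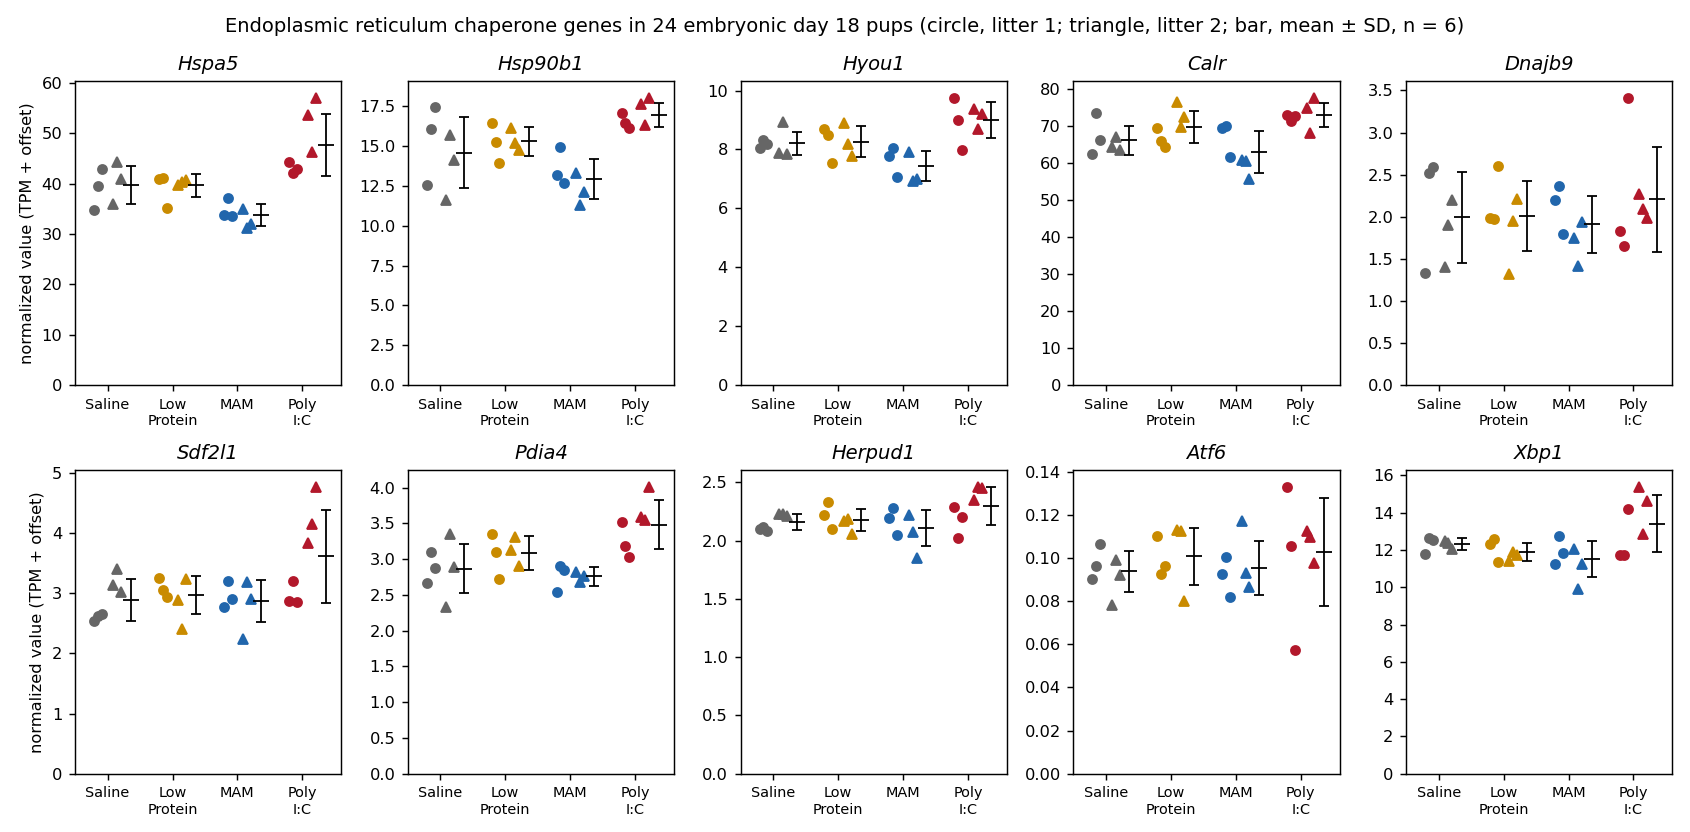
Each panel plots the deposited normalized value of 1 gene (vertical axis, from 0) in the 24 pups by group, with circles for litter 1, triangles for litter 2 and a bar for the mean ± SD of 6 pups. For Hspa5 the 6 MAM pups (31.1 to 37.1) lie below the 6 Poly I:C pups (42.2 to 56.9), and for Dnajb9 and Atf6 the groups lie on top of each other.

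Hspa5 encodes BiP, the major chaperone of the compartment, which also holds the stress sensors inactive. Its value ran from 34.8 to 44.3 in saline with a median of 40.2, and from 35.1 to 41.2 in Low Protein with a median of 40.5. In MAM it ran from 31.1 to 37.1 with a median of 33.6, and in Poly I:C from 42.2 to 56.9 with a median of 45.2. No MAM pup reached the lowest Poly I:C pup, no Low Protein pup did either, and both overlapped with saline. The mean was 33.7 ± 2.12 (SD, n = 6) in MAM and 47.7 ± 6.12 (SD, n = 6) in Poly I:C. The log2 fold change of MAM against Poly I:C was -0.49 (SE 0.074, 0.711-fold), with an adjusted limma p of 0.00186, and by p Hspa5 ranked 1 of 5086 genes. The exact two-sided permutation p was 0.00216, the smallest that 6 pups against 6 can give.

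Against saline, Hspa5 was lower by 0.23 (log2 fold change -0.23, SE 0.074, 95% interval -0.39 to -0.08) in MAM and higher by 0.26 (SE 0.074, interval 0.11 to 0.41) in Poly I:C. The unadjusted limma p was 0.00433 and 0.0019, the adjusted p 0.380 and 0.248, and the exact permutation p 0.0108 and 0.013. These 2 comparisons use the same 6 saline pups. In Low Protein the mean was 39.6 ± 2.29, against 39.7 ± 3.74 in saline (SD, n = 6 each), and the 95% interval of the difference ran from -0.15 to 0.15 on the log2 scale. Low Protein was below Poly I:C by 0.26 on the log2 scale without overlap (0.315% of all genes), with an adjusted limma p of 0.587.

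The litters of the Poly I:C group differed in Hspa5. The mean of 3 pups was 43.1 in litter 1 and 52.2 in litter 2, and the 3 pups of litter 2 (46.2 to 56.9) all lay above the 3 of litter 1 (42.2 to 44.3). In the other groups the litter means lay close together, at 39.1 and 40.4 in saline, 39.0 and 40.2 in Low Protein and 34.8 and 32.7 in MAM. Without Poly I:C litter 2 the log2 fold change of MAM against Poly I:C was -0.36 (adjusted limma p 0.0318), and without MAM litter 2 it was -0.45 (adjusted p 0.128). The 8 litter means of all 4 groups were also fitted together in limma, with 1 shared estimate of the spread. In that fit MAM against Poly I:C had an unadjusted limma p of 0.000764 and an adjusted p of 0.283. Over 42 other settings the log2 fold change stayed between -0.63 and -0.36, and the adjusted p was under 0.05 in 40 of them.

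Hsp90b1 encodes GRP94, the HSP90 chaperone of the compartment, with integrins and Toll-like receptors among its clients. It ran from 11.6 to 17.5 in saline with a median of 14.9, from 13.9 to 16.4 in Low Protein with a median of 15.2, from 11.3 to 14.9 in MAM with a median of 12.9, and in Poly I:C from 16.1 to 18.0 with a median of 16.8. The Poly I:C pups were high and close together and the MAM pups lay wholly below them, whereas the saline pups spread over the range of both. MAM against Poly I:C gave a log2 fold change of -0.39 (SE 0.080, adjusted limma p 0.0137). Against saline it was 0.23 in Poly I:C (SE 0.080, unadjusted limma p 0.00919) and -0.17 in MAM (SE 0.080, unadjusted limma p 0.0502).

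Hyou1 encodes GRP170, a large chaperone that frees BiP of its nucleotide. It ran from 7.86 to 8.92 in saline with a median of 8.12, from 7.54 to 8.91 in Low Protein with a median of 8.34, from 6.92 to 8.04 in MAM with a median of 7.42, and from 8.00 to 9.74 in Poly I:C with a median of 9.09. Only the lowest Poly I:C pup lay within the MAM range. Between MAM and Poly I:C the log2 fold change was -0.27 (SE 0.056, adjusted limma p 0.0137), and against saline it was -0.14 in MAM (SE 0.056, unadjusted limma p 0.0196) and 0.13 in Poly I:C (SE 0.056, unadjusted limma p 0.0262).

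Calr encodes calreticulin, a chaperone for glycoproteins that also stores calcium. It ran from 62.5 to 73.4 in saline with a median of 65.2, from 64.2 to 76.3 in Low Protein with a median of 69.6, from 55.5 to 70.1 in MAM with a median of 61.2, and from 67.9 to 77.4 in Poly I:C with a median of 72.8. The MAM and Poly I:C ranges overlapped. The MAM litters did not overlap, with a mean of 67.0 in litter 1 and 59.0 in litter 2, nor did the Low Protein litters, with 66.5 and 72.8. The log2 fold change of MAM against Poly I:C was -0.21 (SE 0.058, adjusted limma p 0.0413), which became -0.12 without MAM litter 2 (unadjusted limma p 0.077), and the adjusted p was under 0.05 in 21 of 42 other settings. Against saline, Calr was 0.14 higher in Poly I:C on the log2 scale (SE 0.058, unadjusted limma p 0.0231).

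Pdia4 encodes ERp72, an enzyme that makes and reshuffles disulfide bonds. It ran from 2.33 to 3.35 in saline with a median of 2.88, from 2.72 to 3.35 in Low Protein with a median of 3.11, from 2.54 to 2.91 in MAM with a median of 2.79, and from 3.03 to 4.01 in Poly I:C with a median of 3.54. The MAM pups lay wholly below the Poly I:C pups and within the saline range. The log2 fold change was -0.33 for MAM against Poly I:C (SE 0.076, adjusted limma p 0.0226), 0.28 for Poly I:C against saline (SE 0.076, unadjusted limma p 0.00108, adjusted p 0.200) and -0.05 for MAM against saline (interval -0.21 to 0.11). By p Pdia4 ranked 26 of 5086 genes in Poly I:C against saline, the first of the 9 genes tested. The Poly I:C litters of Pdia4 did not overlap, with 3.03 to 3.53 in litter 1 and 3.55 to 4.01 in litter 2, and without litter 2 its log2 fold change against saline was 0.18 (unadjusted limma p 0.0523).

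Sdf2l1 and Dnajb9 had larger limma standard errors (0.117 and 0.185 on the log2 scale) than the chaperone genes described above and Pdia4. Sdf2l1, which works with J-domain proteins to keep unfolded proteins from clumping, ran from 2.53 to 3.40 in saline, 2.401 to 3.25 in Low Protein, 2.25 to 3.21 in MAM and 2.85 to 4.77 in Poly I:C. Its Poly I:C litters did not overlap, with 2.85 to 3.21 in litter 1 and 3.83 to 4.77 in litter 2, and its saline litters did not overlap either (2.53 to 2.65 and 3.02 to 3.40). The log2 fold change of Poly I:C against saline was 0.30 (SE 0.117, unadjusted limma p 0.0157, exact permutation p 0.0628), and it was 0.05 without Poly I:C litter 2 and 0.56 without Poly I:C litter 1. The log2 fold change of MAM against Poly I:C was -0.31 (SE 0.117, adjusted limma p 0.112). Dnajb9 encodes ERdj4, a J-domain protein that directs BiP to IRE1 and to misfolded proteins. It ran from 1.34 to 2.59 in saline, 1.32 to 2.60 in Low Protein, 1.41 to 2.37 in MAM and 1.65 to 3.41 in Poly I:C. The 4 ranges overlapped almost wholly, and the 95% interval of MAM against Poly I:C ran from -0.57 to 0.19 on the log2 scale, so a difference of the size found for Hspa5 lay within it.

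Herpud1 encodes a membrane protein of the machinery that removes misfolded proteins. It was the steadiest of the 10 genes, from 2.08 to 2.23 in saline, 2.06 to 2.33 in Low Protein, 1.85 to 2.28 in MAM and 2.02 to 2.46 in Poly I:C. Its litters did not overlap in Poly I:C, with means of 2.17 and 2.42, or in saline, with 2.10 and 2.22. The log2 fold change of MAM against Poly I:C was -0.12 (SE 0.053, unadjusted limma p 0.0325, adjusted p 0.168), and its 95% interval against saline was -0.15 to 0.07 for MAM and -0.02 to 0.20 for Poly I:C.

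Of the 2 factors, Xbp1 ran from 11.8 to 12.6 in saline with a median of 12.4, from 11.4 to 12.6 in Low Protein with a median of 11.8, from 9.89 to 12.8 in MAM with a median of 11.6, and from 11.7 to 15.4 in Poly I:C with a median of 13.5. In Poly I:C, 4 of the 6 pups lay above every pup of the other groups and the 2 others lay just under the saline range. MAM against Poly I:C gave a log2 fold change of -0.22 (SE 0.065, unadjusted limma p 0.00277, adjusted p 0.058). These values are for all Xbp1 transcripts, and the spliced form was not analysed here. Atf6 ran from 0.0784 to 0.106 in saline, 0.0803 to 0.113 in Low Protein, 0.082 to 0.117 in MAM and 0.0574 to 0.133 in Poly I:C, with all groups overlapping. Its log2 fold change of MAM against Poly I:C was -0.07 (SE 0.145, adjusted limma p 0.855). ATF6 is activated by cutting of the protein, which mRNA levels do not show.

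**Figure D2:**
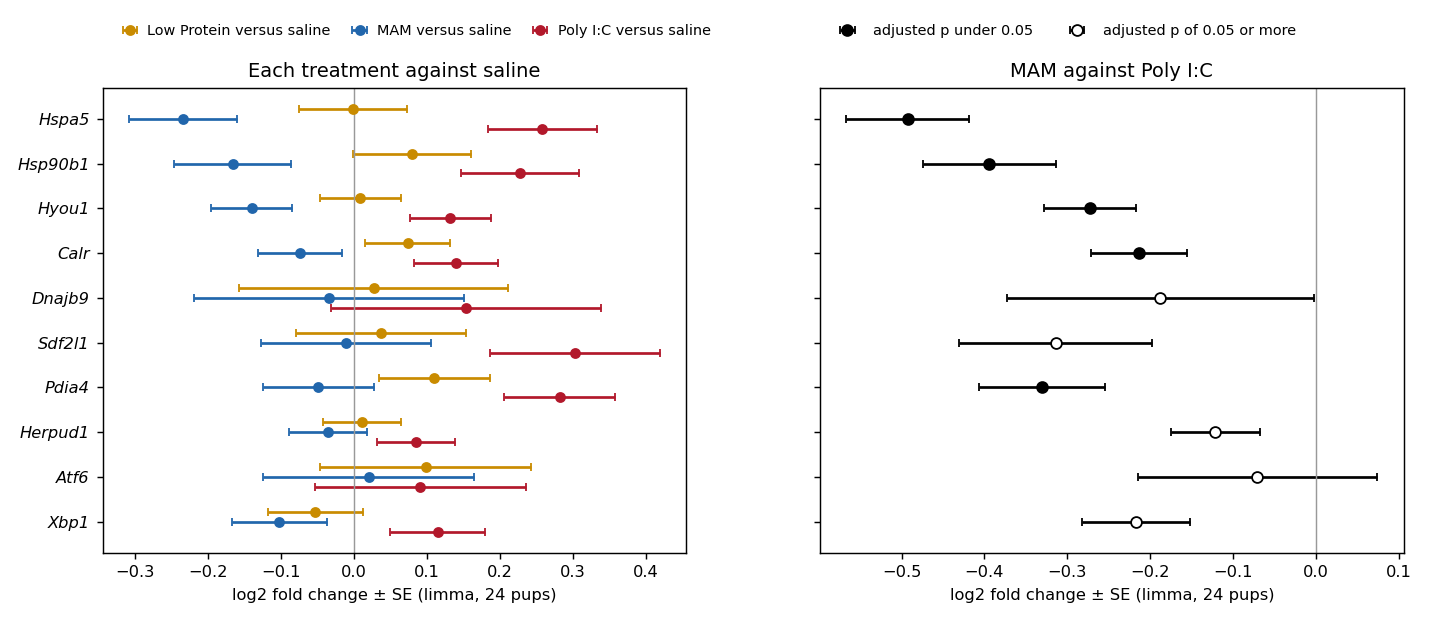
The horizontal axes give the log2 fold change ± SE from limma over 24 pups, on the left for each treatment against saline and on the right for MAM against Poly I:C, where filled points have an adjusted p under 0.05. On the right all 10 genes lie below 0, from -0.49 for Hspa5 to -0.07 for Atf6, and 5 points are filled.

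In MAM against Poly I:C, 5 of the 10 genes had an adjusted limma p under 0.05, where 3.46% of all 5086 genes did. An unadjusted p under 0.05 with a lower value in MAM was found for 8 genes, against 17.1% of all genes. The pups of the 2 groups did not overlap for 3 genes, Hspa5, Hsp90b1 and Pdia4, against 4.35% of all genes. All 10 genes were below 0, with a median of -0.24, where 37.8% of all genes were above 0 and the median of all was -0.04. Leaving out a litter changed the count of 5: it was 1 without MAM litter 1, 0 without MAM litter 2 and 1 without Poly I:C litter 2, each time with 3 pups left in 1 group, and 0 when the litter means were compared. With median of ratios scaling it was 3, without Pdia4 and Calr. Without MAM pup 2.2 the count was 3. The log2 fold changes of the 5 genes stayed below 0 in all 42 settings. Over all genes with an unadjusted p under 0.05 the higher ones made up 26.0% as deposited, 60.5% with median of ratios scaling, 61.2% with upper quartile scaling and 42.1% with equal read scaling, and the 10 genes were below 0 under each of these.

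In Poly I:C against saline all 10 genes were above 0, as were 53.2% of all genes, with a median of 0.15 where all genes had 0.0081. An unadjusted p under 0.05 with a higher value was found for 6 genes, Pdia4, Hspa5, Hsp90b1, Sdf2l1, Calr and Hyou1, and for 4.25% of all genes. The exact permutation p was under 0.05 for 5 of them, all but Sdf2l1. No gene of the 10 and none of the 5086 had an adjusted limma p under 0.05, and for no gene of the 10 were the groups apart (0.492% of all genes). Without Poly I:C litter 1, where 201 of all genes passed the adjusted test, Hspa5 (0.39, adjusted p 0.018), Sdf2l1 (0.56, adjusted p 0.018) and Pdia4 (0.38, adjusted p 0.0233) passed it too. The count of 6 became 0 without Poly I:C litter 2 and 3 without saline litter 2. The log2 fold changes of the 4 other genes were 0.15 for Dnajb9, 0.12 for Xbp1 and 0.09 for both Herpud1 and Atf6.

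In MAM against saline, 9 of the 10 genes were below 0, with a median of -0.06, where 32.1% of all genes were above 0 and their median was -0.05, and of the 9 Dnajb9, Sdf2l1 and Herpud1 turned above 0 under each other scaling and Pdia4 with median of ratios scaling. The log2 fold changes not given above were -0.10 for Xbp1, -0.07 for Calr, -0.04 for Herpud1, -0.03 for Dnajb9, -0.01 for Sdf2l1 and 0.02 for Atf6. Hspa5 and Hyou1 had an unadjusted p under 0.05 with a lower value, as did 8.18% of all genes, and none of the 10 had an adjusted p under 0.05 (0.0197% of all genes). The count of 2 became 4 without MAM litter 1, 0 without MAM litter 2 and 1 without saline litter 1, and 1 without MAM pup 2.2 or saline pup 2.2. This comparison depended on the scaling of the pups: of all genes with an unadjusted p under 0.05 the higher ones made up 27.3% as deposited, 79.96% with median of ratios scaling, 59.3% with upper quartile scaling and 58.2% with equal read scaling, in which each pup has the same estimated reads. With median of ratios scaling the median of the 10 genes was 0.00, and Hspa5 stayed below 0 under every scaling.

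In Low Protein against saline none of the 10 genes had an unadjusted p under 0.05, against 8.24% of all genes. Of the 10, 8 were above 0 and 2 below (47.8% of all genes were above), the median was 0.03, and the lowest adjusted limma p was 0.702, for Pdia4. Without saline pup 2.2, 1 gene passed the unadjusted threshold. The log2 fold changes were 0.11 for Pdia4, 0.10 for Atf6, 0.08 for Hsp90b1, 0.07 for Calr, 0.04 for Sdf2l1, 0.03 for Dnajb9, 0.01 for Herpud1 and -0.05 for Xbp1, and those of Hyou1 and Hspa5 were closer to 0. The 95% intervals were narrowest for Herpud1 (-0.10 to 0.12) and widest for Dnajb9 (-0.35 to 0.41), with Atf6 next (-0.20 to 0.40). Between the treatments, 5 genes were higher in Low Protein than in MAM at an unadjusted limma p under 0.05 (Hspa5, Hsp90b1, Hyou1, Calr and Pdia4, against 8.79% of all genes), and 5 were lower in Low Protein than in Poly I:C (Hspa5, Xbp1, Sdf2l1, Pdia4 and Hyou1, against 2.36%), with none of the 10 at an adjusted p under 0.05 in either (0.0983% and 0.0393% of all genes). The first count was 0 without MAM litter 2 and the second 0 without Poly I:C litter 2. The test for any difference among the 4 groups passed for Hspa5 (adjusted limma p 0.0145, as for 0.413% of all genes), and the next were Hsp90b1 (0.0753), Hyou1 (0.0874) and Pdia4 (0.101).

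The mean of the 10 genes in each pup, as the log2 deviation from the saline mean, was 0.18 ± 0.099 in Poly I:C, 0.04 ± 0.042 in Low Protein and -0.08 ± 0.091 in MAM, with an SD of 0.112 in saline (SD, n = 6 each). The 6 Poly I:C pups ran from 0.06 to 0.30 and the 6 saline pups from -0.15 to 0.10. In Poly I:C the 3 pups of litter 2 (0.20 to 0.30) were above the 3 of litter 1 (0.06 to 0.15). In MAM 5 of the 6 pups were below 0, and the pup above it had 0.07.

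**Figure D3:**
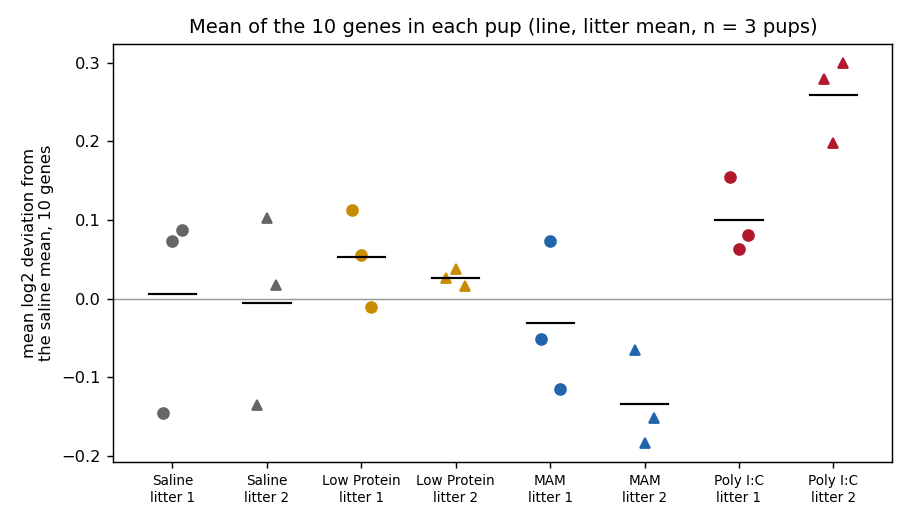
Each point is the mean log2 deviation from the saline mean over the 10 genes in 1 pup (vertical axis), by group and litter, and each line is the mean of a litter of 3 pups. All 6 Poly I:C pups lie above 0, and litter 2 of that group lies highest.

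Markers of other cell types and of proliferation were read in the same pups. Summed choroid plexus markers ran from 33.3 to 250 in Poly I:C, with 33.3 to 155 in litter 1 and 197 to 250 in litter 2, and from 57.6 to 212 in MAM, 126 to 186 in saline and 131 to 213 in Low Protein. All 7 of these markers, Ttr, Folr1, Kl, Clic6, Aqp1, Kcnj13 and Otx2, were detected in every pup. Summed proliferation markers ran from 32.3 to 41.5 in Poly I:C, 27.8 to 37.6 in MAM, 29.0 to 33.1 in saline and 29.96 to 37.5 in Low Protein. The Poly I:C litters did not overlap in them, with 32.3 to 33.0 in litter 1 and 36.7 to 41.5 in litter 2. Nor did the Low Protein litters, with 35.4 to 37.5 in litter 1 and 29.96 to 32.1 in litter 2. Ganglionic eminence markers, 6 genes, ran from 43.9 to 86.8 in saline, 37.9 to 53.1 in Low Protein, 40.8 to 55.8 in MAM and 44.0 to 61.6 in Poly I:C. Blood, meninges, endothelium and microglia markers were also detected in every pup, and their ranges overlapped between all groups. Within Poly I:C the litters did not overlap for endothelium markers, with 42.1 to 50.5 in litter 1 and 55.5 to 71.0 in litter 2. They did not overlap for microglia markers either, with 8.12 to 10.6 in litter 1 and 11.1 to 12.1 in litter 2. The part of these markers, and of the lower depth in Poly I:C, in the results for the 10 genes was not tested.

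The other genes of the pathway were read from lists of known members, and their counts stand beside the share over all genes, which at an unadjusted p under 0.05 was 8.18% lower in MAM than in saline and 4.25% higher in Poly I:C than in saline. Of the other folding factors of the endoplasmic reticulum 14 were tested, and 8 were lower in MAM than in Poly I:C at an unadjusted limma p under 0.05 (17.1% of all genes) and none higher, with a median of -0.19. At an adjusted p under 0.05, 4 were lower (3.46% of all genes). These included the disulfide isomerases Pdia3 (-0.30, adjusted p 0.021) and Pdia6 (-0.22, adjusted p 0.0396) and the BiP helper Dnajb11 (-0.20, adjusted p 0.0374), beside -0.49 for Hspa5. Against saline 5 of the 14, among them Dnajc10, Pdia3 and Dnajb11, were lower in MAM and 3, Creld2, Ganab and Pdia6, were higher in Poly I:C at an unadjusted p under 0.05, and none passed the adjusted test.

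Genes for entry into the compartment and for removal of misfolded proteins were read next. Of 12 genes tested for entry into the compartment, 5 were lower in MAM than in Poly I:C at an unadjusted p under 0.05 (17.1% of all genes) and none at an adjusted p (3.46% of all genes). Against saline, Sec61b (0.22) and Sec11a (0.15) were higher in Poly I:C, and Ssr4 (0.25) and Sec61g (0.21) in Low Protein, at an unadjusted limma p under 0.05. Of all genes 4.25% were higher in Poly I:C at that threshold, and 8.24% differed in Low Protein in either direction. Of 10 genes for degradation and export 1, Vcp (-0.16, adjusted p 0.0584), was lower in MAM than in Poly I:C at the unadjusted threshold, as were 17.1% of all genes. Vcp and Nploc4 were lower in MAM than in saline at that threshold (8.18% of all genes). Of 4 genes tested for sensors and their processing none passed it in either comparison.

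The branch of the response that runs through PERK and the factor ATF4 was read from 8 genes tested, with 1 higher and 3 lower in MAM than in Poly I:C at an unadjusted p under 0.05. Of all genes 23.1% passed that threshold in either direction, and 17.1% were lower. Ddit3, which encodes the factor CHOP, was lower in MAM than in Poly I:C (-0.38, adjusted limma p 0.0233), and Atf4 was too (-0.21, adjusted p 0.0423), where 3.46% of all genes passed the adjusted test. Against saline at an unadjusted p under 0.05, Ddit3 was higher in Poly I:C (0.31) and in Low Protein (0.22), and Atf4 was lower in MAM (-0.22). At that threshold 4.25% of all genes were higher in Poly I:C, 8.18% were lower in MAM, and 8.24% differed in Low Protein in either direction. Psat1, an enzyme of serine synthesis, was higher in Low Protein (0.48, unadjusted limma p 9.3e-05, adjusted p 0.232) and in Poly I:C (0.23), while Ddit4 was higher in MAM (0.22) and Cebpb lower in Poly I:C (-0.40).

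Chaperones outside the endoplasmic reticulum differed as well. Of 19 cytosolic and mitochondrial chaperone genes tested, 14 were lower in MAM than in Poly I:C at an unadjusted limma p under 0.05 (17.1% of all genes), 7 of them at an adjusted p (3.46% of all genes), and 1 was higher. The lower genes included Hsph1 (-0.45, adjusted p 0.00727), Hspa8 (-0.32, adjusted p 0.00508), the mitochondrial Hspa9 (-0.30, adjusted p 0.016), Dnaja1 (-0.30, adjusted p 0.0294) and Stip1 (-0.20, adjusted p 0.033). Hspe1, the small partner of the mitochondrial chaperonin, was higher in MAM than in saline (0.36, unadjusted limma p 0.000844). Against saline at an unadjusted p under 0.05, 8 of the 19 were lower in MAM (8.18% of all genes), among them Hsph1 (-0.28), Hspa9 (-0.19) and Hspa8 (-0.17). At the same threshold 4 were higher in Poly I:C (4.25% of all genes), among them Hsph1 (0.17) and Hspa8 (0.15). None of the 19 passed the adjusted test against saline.

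**Figure D4:**
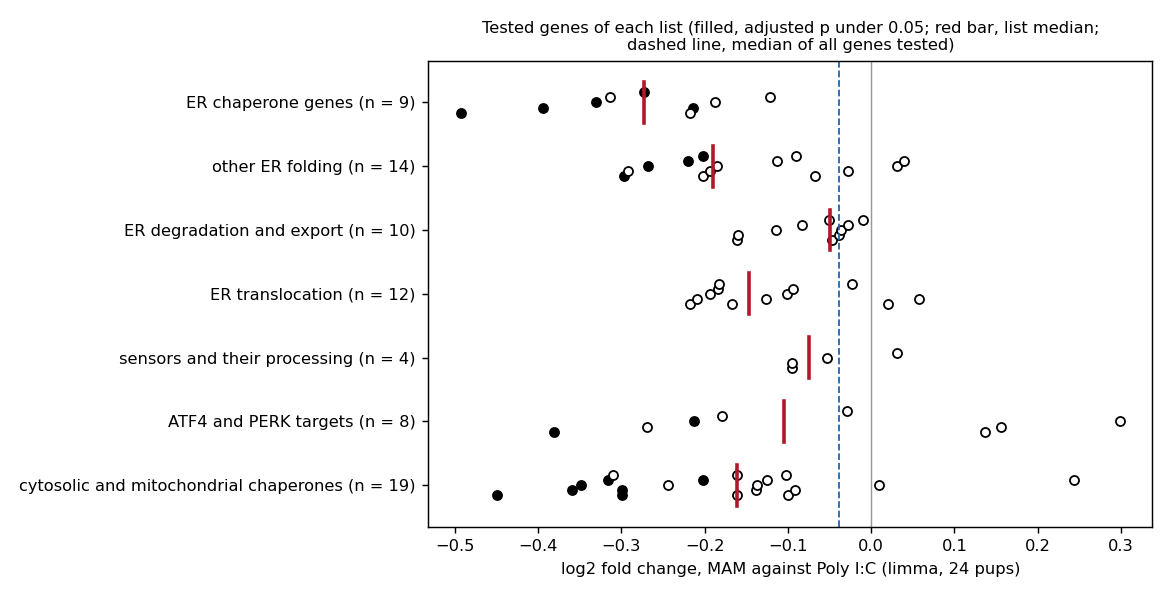
Each point is the log2 fold change of 1 tested gene in MAM against Poly I:C (horizontal axis), by list, filled where the adjusted limma p is under 0.05, with a red bar at the median of the list and a dashed line at the median of all genes tested (-0.04). The ER chaperone genes that were tested (n = 9) have the lowest median of the lists (-0.27), and the 19 cytosolic and mitochondrial chaperones include 7 filled points.

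Across the 24 pups the 10 genes did not all follow each other. Hspa5 had the closest correlation with the mean log2 value of the other tested members (Pearson's r 0.92), followed by Hsp90b1 (0.87) and Pdia4 (0.78), and Dnajb9 had the loosest (0.28), with Sdf2l1 next (0.48). Among the tested genes outside the 10, those most like their mean were Hspa8 (r 0.86), Tra2a (0.85), Pdia6 (0.81), Caprin1 (0.78) and Ddx21 (0.78). Each of these 5 had its lowest group mean in MAM and its highest in Poly I:C, as for Hspa8 with 811 ± 57.5 and 1011 ± 73.4 (SD, n = 6 each) and 909 ± 28.8 in saline. All 24 points share the scaling of the table, the groups and the litters, so these are descriptions.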

How the data were processed

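Stranded mRNA libraries were made from hippocampus and neocortex, 1 for each of 24 pups. The authors trimmed the reads, aligned them to rn6 with STAR (2.4.1d), counted them per RefSeq transcript in Partek (E/M) and deposited TPM values to which 0.0001 had been added. These deposited TPM values sum to 70350.1 in every pup, and 20.9% of them equal the offset. Times the GRCr8 genomic span (97.5% of genes matched, 15098 by symbol and 1890 by synonym), low values are near whole multiples of a step, within 0.05 for 49.1% to 54.2% of them, where a step fixed beforehand gives 10% by chance. The step was chosen in each pup for the best fit, so the share by chance lies above 10%. Reads were estimated from that step and are approximate, so limma and not a count model was used.

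Groups were taken from the labels, and litters from the first part of the pup number together with the stated 3 pups per dam. Log2 values of all 24 pups were fitted with the group as the factor in limma (3.58.1, R 4.3.3), with Benjamini-Hochberg adjustment of p over the 5086 genes with a mean above 1 in every group. The fit was tested on simulated data. Each of the 10 genes was also compared by permuting the pups between 2 groups (exact, two-sided, mean of log2 values, 924 splits). With 2 litters against 2 no exact p can go below 0.333, so p-values over pups measure the spread between pups. The members, gene lists and tests were chosen with earlier results of these data known. All 10 genes enter each comparison, and the text names them and, from each list up to 6 genes with the lowest unadjusted p against saline of those under 0.05. Ankmy2, Canx, Hnrnpa3, Zfp57 and Birc5 were chosen after their values were seen. The alternatives changed the filter, scaling, pseudocount, litter handling and block, or left out 1 of 24 pups or 1 of 8 litters. Promoters were searched by exact letters. Other cell types were read from marker lists. 2 markers of the labelled tissue are not reported here.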

Additional observations from a re-analysis of the deposited data

Results flagged for a closer look

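Of 44 sets of 6 pups (the 10 genes and the mean over them, in each of 4 groups), 2 held a pup farther from the others than Dixon's critical value for 6 pups allows, where chance flags about 1 in 20. Hspa5 in Low Protein pup 1.3 was the lowest of its group at 35.1, with a gap to the next pup of 0.766 of the range. Atf6 in Poly I:C pup 1.3 was the lowest of its group at 0.0574, with a gap of 0.633 of the range. Without Low Protein pup 1.3 the log2 fold change of Hspa5 against saline was 0.03.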

How the results depend on the processing

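Results were recomputed under 42 settings. Of 1680 values for single genes, in each treatment against saline and in MAM against Poly I:C, 1558 kept direction and side of the unadjusted threshold, 49 no longer passed it, 16 now did and 57 turned sign. Equal read scaling was added after the data were seen. The number of the 10 genes with an adjusted limma p under 0.05 in MAM against Poly I:C (5) was 3 with median of ratios scaling, 0 with litter means, 1 without MAM litter 1, 0 without MAM litter 2, 1 without Poly I:C litter 2 and 3 to 5 without 1 pup. At an unadjusted p the 8 became 5 without MAM litter 2 or Poly I:C litter 2. In MAM against saline the 2 became 1 with median of ratios scaling, 4 without MAM litter 1, 0 without MAM litter 2, 1 without saline litter 1 and 1 to 3 without 1 pup, and the median of -0.06 became 0.0038 with median of ratios scaling and -0.16 without MAM litter 1. In Poly I:C against saline the 6 became 0 without Poly I:C litter 2 and 3 without saline litter 2. In Low Protein against saline the 0 became 0 to 1 without 1 pup. In Low Protein against MAM the 5 became 3 with median of ratios, upper quartile or equal read scaling, litter means or without Low Protein litter 2, 0 without MAM litter 2, and 3 to 5 without 1 pup. In Low Protein against Poly I:C the 5 became 2 with median of ratios or upper quartile scaling or litter means, 3 without Low Protein litter 1, 1 without Low Protein litter 2, 0 without Poly I:C litter 2, and 1 to 6 without 1 pup. Leaving out a litter leaves 3 pups in that group, and the cause of the changes was not tested beyond that.

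The turned signs were of log2 fold changes no farther from 0 as first fitted than 0.09, that of Atf6 in Poly I:C against saline. With a litter left out the turned values reached 0.135, for Sdf2l1 in MAM against saline. In Low Protein against saline they were Hspa5 (0.0242 with median of ratios, 0.00092 with upper quartile and 0.0107 with equal read scaling, 0.0229 without Low Protein litter 1, 0.023 without saline litter 2, -0.0379 to 0.0341 without 1 pup), Dnajb9 (-0.114 and -0.0668 without the same litters, -0.0785 to 0.143 without 1 pup), Sdf2l1 (-0.0258 without Low Protein litter 1, -0.109 without saline litter 1), Herpud1 (-0.0147 and -0.0295 likewise, -0.0085 to 0.0277 without 1 pup) and Hyou1 (-0.0132 to 0.035 without 1 pup). In MAM against saline, median of ratios, upper quartile and equal read scaling gave 0.0312, 0.00703 and 0.0047 for Dnajb9, 0.0536, 0.0294 and 0.0271 for Sdf2l1 and 0.029, 0.0048 and 0.0025 for Herpud1, and median of ratios scaling gave 0.0163 for Pdia4. Without MAM litter 2 the values were 0.0183 for Calr, 0.129 for Dnajb9, 0.0415 for Sdf2l1, 0.0077 for Herpud1 and -0.0308 for Atf6. Without saline litter 1 Dnajb9 had 0.0605, and without saline litter 2 Sdf2l1 had 0.135, Herpud1 0.0056 and Atf6 -0.0408. Without 1 pup the ranges were -0.139 to 0.0519 for Dnajb9, -0.0478 to 0.0578 for Sdf2l1, -0.0584 to 0.0012 for Herpud1 and -0.0409 to 0.0619 for Atf6. Without Poly I:C litter 2 Atf6 had -0.00602 in Poly I:C against saline and 0.0264 in MAM against Poly I:C, where it ran from -0.229 to 0.0131 without 1 pup. Signs not counted above also turned in Low Protein against MAM for Dnajb9 (-0.10 to 0.22 over all settings), Sdf2l1 (-0.02 to 0.11) and Xbp1 (-0.0087 to 0.11), and in Low Protein against Poly I:C for Dnajb9 (-0.27 to 0.01), Herpud1 (-0.15 to 0.0045) and Atf6 (-0.15 to 0.10).

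The share of higher genes among all with an unadjusted p under 0.05 moved from 44.4% to 58.9% (median of ratios) and 34.2% (upper quartile) in Low Protein against saline, from 42.7% to 24.6% (upper quartile) in Poly I:C against saline, from 79.8% to 45.1%, 44.3% and 57.7% (equal read) in Low Protein against MAM and from 55.6% to 65.4% and 68.9% in Low Protein against Poly I:C. With the pup number as a replicate block, MAM against Poly I:C had 6 genes at an adjusted p under 0.05, and 427 of all genes in place of 176. The numbers were not taken to pair the pups, since deviations of same-numbered pups of different groups correlated from -0.42 to 0.56 and not each above 0.1. The median of these correlations was 0.16, against -0.02 for other numbers, and 8 of 24 pups correlated best with their own of the 6 numbers. The limit of 0.1 for each pair cannot decide whether pups of the same number shared a processing step, which was not tested. Depth limits Sdf2l1 most, with 194 estimated reads in 1 pup.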

Other observations

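The ERSE or ERSE-II letters were found in a promoter of 38 genes, of which 32 are outside the 10 and 10 of those were tested. In MAM against Poly I:C 8 of these 10 were below 0, with a median of -0.13, where 37.8% of all genes were above 0. An unadjusted limma p under 0.05 was found for 5 (23.1% of all genes), and an adjusted p under 0.05 for 2 (3.46% of all genes), the membrane-bound chaperone Canx (-0.27, adjusted p 0.0408) and Dnajb11 (-0.20, adjusted p 0.0374). The others with an unadjusted p under 0.05 were Hnrnpa3 (-0.39), Creld2 (-0.18) and Zfp57 (-0.20). Canx, Dnajb11 and Creld2 were already counted among the other folding factors above, so the 2 sets are not separate. The highest value was that of Birc5 (0.16). In MAM against saline 9 of the 10 were below 0, where 32.1% of all genes were above 0. An unadjusted limma p under 0.05 was found there for Ankmy2, Canx and Dnajb11, which were lower, and for Birc5, which was higher (0.27). Of all genes 11.2% passed that threshold in either direction. In Poly I:C against saline 7 were above 0 (53.2% of all genes), and Creld2 had an unadjusted p under 0.05 (9.95% of all genes in either direction). None of the 10 passed the adjusted test against saline. This set was looked at after the values of the members were known.

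Correlation between littermates, after the group means were taken out, was 0.64 for Sdf2l1, 0.43 for Calr, 0.40 for Herpud1 and 0.34 for Hspa5. It was 0.22 for Xbp1, -0.03 for Hsp90b1, -0.06 for Pdia4, -0.13 for Dnajb9 and -0.35 for Hyou1. The consensus over the genes tested was 0.03. Each single-gene value rests on 8 litters, and its spread was not estimated.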
